A study of Mus musculus with 24 samples.

Results

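The 38 genes described here encode the machinery that takes up glucose, breaks it down and disposes of the products: 3 glucose transporters, 3 hexokinases, the enzymes of upper and lower glycolysis, the Pfkfb enzymes that set the pace of phosphofructokinase, the lactate dehydrogenases and monocarboxylate transporters, the kinases and a catalytic subunit of pyruvate dehydrogenase, 5 enzymes of the pentose phosphate pathway, and Hif1a. They were chosen by gene symbol for their place in these pathways, with earlier results of these data known. All 38 were found among the 24411 genes of each deposited table. Between 35 and 37 of them had a mean of at least 10 normalized counts in any given comparison and were tested.

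Glycolysis splits glucose to pyruvate in the cytosol, and pyruvate is then either reduced to lactate by lactate dehydrogenase and exported by monocarboxylate transporters, or committed to the mitochondrion by pyruvate dehydrogenase, which the Pdk kinases hold back. The pentose phosphate pathway branches off at glucose phosphate and yields NADPH and ribose phosphate, and Hif1a encodes the oxygen-regulated subunit of a transcription factor that acts on many glycolytic genes. In the brain, astrocytes are known as strongly glycolytic cells that release lactate, and macrophages, to which microglia are related, are known to shift toward glycolysis when they meet bacterial lipopolysaccharide (LPS).

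The study sequenced polyadenylated RNA in bulk from purified, cultured astrocytes and microglia of wild-type (WT) mice and of mice with the SOD1G93A transgene, a mutant human SOD1 that causes motor neuron disease. The 21 libraries used here form 7 groups of 3, and the 3 remaining samples of the series, quiescent SOD1G93A microglia, are in no comparison here. Astrocytes came from mice of postnatal day 5, were immunopanned for HepaCAM from dissociated cortex after panning that removed microglia (CD45), endothelial cells (BSL I) and oligodendrocyte lineage cells (O4), and were kept without serum in a medium that held pyruvate and HBEGF. Quiescent astrocytes of either genotype received buffer, and activated ones received IL-1α, TNFα and C1q at 3, 30 and 400 ng/mL in that order. Microglia came from whole brains of mice of postnatal days 7 to 10, were sorted magnetically for Cd11b and were kept without serum with TGF-β2, IL-34 and cholesterol. The quiescent WT group received buffer, and LPS groups of both genotypes received LPS at 50 ng/mL. All groups thus stem from young animals in which the motor disease has not begun, and the transgene, driven by the human SOD1 promoter, is not limited to a cell type. The culture media also set the supply of glucose and pyruvate.

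Each library held between 2016139 and 11570122 assigned reads (median 5098168). Values are normalized counts, reads divided by a size factor for the library, and log2 fold changes compare means of log2(normalized count + 1), with a standard error (SE) and n = 3 libraries per group. The strict call asks for a gene to change over 2-fold with an adjusted p below 0.001, and the wider call for an adjusted p below 0.05 at any size. The sample descriptions do not say whether replicates were separate animals or cultures, and the study's supplementary table of biological replicates could not be read here, so the p-values measure only the spread between these libraries, which may be technical. A comparison of levels between genes uses normalized counts per 1000 bases of transcript. Of the 38 members, 14 share more than 10% of their 31-base words with other genes, pseudogenes included (among them Pgk1, Pgam1, Pkm, Ldhb, Eno1 and Gapdh), and their counts are less certain than those of the other 24.

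Tnf followed the LPS label in WT microglia, and no such gene is given here for the cytokine label of astrocytes. Microglia markers and astrocyte markers followed the labels of cell type, but other lists did not. Oligodendrocyte lineage markers summed to 12756, 12725 and 13117 in quiescent WT astrocytes, mostly Olig1, although O4 panning had been used. In quiescent WT microglia they summed to 8136, 8502 and 8455, mostly Cspg4. Neuron markers summed to 3874, 4112 and 3392 in quiescent WT astrocytes, mostly Map2. The 12 microglia markers summed to 68409, 73377 and 67797 normalized counts in quiescent WT microglia (Csf1r the most abundant, none at 0) and to 683, 994 and 1323 in quiescent WT astrocytes, and the 12 astrocyte markers to 23221, 25458 and 31776 in those astrocytes (Slc1a3 the most abundant) against 1031, 921 and 1028 in the microglia. In quiescent WT astrocytes a microglia marker reached a median of 1.46% of its microglial level (0.973 to 3.76%), and in the microglia an astrocyte marker reached a median of 2.54% of its astrocytic level (1.40 to 17.2%). Tnf read 283, 249.8 and 268 in quiescent and 7359, 6751 and 6217 in LPS-treated WT microglia. The sex of the cultures was not matched. Ddx3y, a Y-linked gene, read 139, 136 and 149 in quiescent WT microglia and 5.14, 2.81 and 7.57 after LPS, so the LPS libraries held nearly no male RNA. In astrocytes it read 113, 137 and 126 in quiescent WT and 56.5, 59.4 and 64.9 in quiescent SOD1G93A libraries. Xist read 3559, 2732 and 1159 and 4972, 10159.8 and 13974 in the same astrocyte groups. The part of sex in the results was not tested; Pgk1, G6pdx, Pdha1, Pdk3 and Pfkfb1 lie on the X chromosome. The third library of LPS-treated SOD1G93A microglia stood apart: Nos2, an LPS-induced gene, read 2989, 3086 and 325 across the 3 libraries, against 3229, 3666 and 3497 in WT.

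At rest, microglia carried more RNA for most of the glycolytic route than astrocytes did, and the cell types differed in which isozyme supplied several steps. Quiescent WT microglia were compared with quiescent WT astrocytes on a scale common to the 12 WT libraries; cell type, age, tissue, isolation and medium differ together here and cannot be told apart, and in bulk RNA fewer cells of a type and less RNA per cell cannot be told apart either. Of the 37 members tested, 20 were higher and 5 lower in microglia at the strict call, beside 22.0% and 25.6% of the 12334 genes tested. The wider call was passed upward by 27 and downward by 6, beside 37.8% and 40.9%. The members' median log2 fold change was 1.47 against -0.07 over all genes. It was 0.71 under quantile normalization and 1.60 under TMM scaling, which moved the median of all genes to 0.06. Slc16a3, Hk3 and Slc16a7 passed the filter on low values only because of their level in microglia, so these counts are a description. Markers of other cell types also differed at the strict call. Among them Olig2 (-6.34) and Map2 (-5.49) were lower in microglia, and Cspg4 (4.91), Mbp (3.92) and Flt1 (3.10) were higher. The sex genes Xist (-2.15) and Kdm5d (-1.81) were lower in microglia. The part of these markers and of sex in the members' results was not tested.

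Among the glucose transporters, Slc2a6 (GLUT6) read 14.0, 11.4 and 15.7 in astrocytes and 396, 414 and 423 in microglia. Its level was low in all astrocyte libraries and high in all microglia libraries (log2 fold change 4.82 ± 0.15 (SE), adjusted p = 7.08e-13). Slc2a1 (GLUT1, 2.37 ± 0.13) and Slc2a3 (GLUT3, 1.78 ± 0.19) were also higher in microglia at the strict call. Per 1000 bases, Slc2a1 made up 55.7% of the RNA of the 3 transporters in microglia and 73.1% in astrocytes, and Slc2a6 made up 34.7% and 7.94%. Among the hexokinases, which trap glucose in the cell, Hk2 read 78.1, 56.9 and 104 in astrocytes and 1279.9, 1328 and 1321 in microglia (log2 fold change 4.06 ± 0.17 (SE), adjusted p = 1.25e-11). Hk3 read 6.01, 7.97 and 10.5 in astrocytes and 518, 629 and 542 in microglia (log2 fold change 5.97 ± 0.23, SE). For both genes every microglia library lay above every astrocyte library, while Hk1 differed by 0.81 ± 0.12 (0.34 under quantile normalization), past the wider call only. Astrocytes drew 90.4% of their hexokinase RNA per length from Hk1, and microglia split it into 40.1% Hk1, 34.5% Hk2 and 25.4% Hk3. The astrocytic level of Hk3 was 1.46% of the microglial one, and that of Slc2a6 3.36%, within the range of the microglia markers named above. Whether the few microglia marker reads in astrocytes account for them was not tested.

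In upper glycolysis the isozymes went opposite ways. Aldoc, the aldolase typical of astrocytes in brain, read 1650.2, 1797 and 1871 in astrocytes and 157, 163 and 151 in microglia (log2 fold change -3.49 ± 0.18 (SE), adjusted p = 1.46e-10). Pfkm, the muscle-type phosphofructokinase, read 366, 448 and 457 in astrocytes and 68.5, 58.5 and 54.7 in microglia (log2 fold change -2.79 ± 0.18 (SE), adjusted p = 2.47e-09). Both were low in all 3 microglia libraries. Aldoa (2.25 ± 0.13), Pfkl (1.96 ± 0.15) and Pfkp (1.77 ± 0.16), the other isozymes of the same steps, were higher in microglia at the strict call, as was the isomerase Tpi1 (1.47 ± 0.11). Pfkm held 63.6% of phosphofructokinase RNA per length in astrocytes and 6.44% in microglia, where Pfkl held 48.9% and Pfkp 44.6%. Aldoc held 27.8% of aldolase RNA in astrocytes and 0.712% in microglia. Gpi1, which interconverts glucose and fructose phosphates, was 0.53 ± 0.11 and past the wider call, but went to -0.15 under quantile normalization. Of the Pfkfb enzymes, which make and remove the activator of phosphofructokinase, Pfkfb3 read 162, 167 and 249 in astrocytes and 1449.7, 1357 and 1404 in microglia (log2 fold change 2.89 ± 0.14 (SE), adjusted p = 9.45e-11). Its microglia libraries all lay above the astrocyte ones. Pfkfb4 was higher in microglia as well (2.16 ± 0.16), and Pfkfb2 was not called (-0.14 ± 0.22). Pfkfb1 stayed under the filter in all comparisons, with 12.02, 3.41 and 4.75 in astrocytes and 0, 4.87 and 2.65 in microglia.

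Lower glycolysis was higher in microglia for Pkm (1.59 ± 0.11), the pyruvate kinase that ends the pathway, Gapdh (1.53 ± 0.13), its NADH-forming dehydrogenase, and Eno1 (1.37 ± 0.11), the common enolase, all at the strict call. Under quantile normalization the strict call was missed by Pkm (0.71, adjusted p = 1.89e-06), Gapdh (0.60, adjusted p = 1.54e-05) and Eno1 (0.58, adjusted p = 0.000169) and, of upper glycolysis, by Tpi1 (0.96, adjusted p = 1.87e-07). Pgam1 (0.94 ± 0.08) and Pgk1 (0.50 ± 0.08), a mutase and a kinase of the same stretch, passed the wider call, Pgk1 turning to -0.11 under quantile normalization. Eno2, the enolase known from neurons, was not called (-0.03 ± 0.34). Per 1000 bases Gapdh stood highest of all members in each of the 7 groups, at 13909.7 ± 1009 (SD) in quiescent WT microglia and 4891 ± 773 in quiescent WT astrocytes. On the lactate side, Slc16a3 (MCT4), a lactate exporter of strongly glycolytic cells, read 4.01, 6.83 and 15.7 in astrocytes and 1197, 1314 and 1117 in microglia (log2 fold change 7.12 ± 0.34, SE). Slc16a7 (MCT2), a high-affinity transporter, read 4.01, 5.69 and 6.65 in astrocytes and 35.8, 31.7 and 37.1 in microglia (log2 fold change 2.49 ± 0.40, SE). Both were at a few counts in astrocytes and higher in each microglia library. Slc16a1 (MCT1) went the other way (-0.77 ± 0.13, wider call) and made up 95.4% of the RNA of the 3 transporters per length in astrocytes but 9.68% in microglia, where Slc16a3 made up 89.3%. The astrocytic level of Slc16a3 was 0.737% of the microglial one, below every microglia marker. Ldhb, the heart-type lactate dehydrogenase, was lower in microglia (-1.16 ± 0.12), and Ldha, the muscle type, was higher at the wider call (0.98 ± 0.09). Ldha held 74.2% of their RNA per length in microglia and 39.5% in astrocytes. Under quantile normalization Ldha was 0.38 and Pgam1 0.29, both still past the wider call.

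At the entry to the mitochondrion, Pdk1, a pyruvate dehydrogenase kinase, read 70.1, 63.7 and 76.0 in astrocytes and 468, 536 and 449.9 in microglia (log2 fold change 2.78 ± 0.13 (SE), adjusted p = 6.53e-11). All microglia libraries were high for it, whereas Pdk2 (-1.44 ± 0.17) and Pdha1 (-1.53 ± 0.08), a catalytic subunit of the complex itself, were lower in microglia at the strict call. Pdk2 made up 71.9% of the RNA of the 3 kinases per length in astrocytes, and Pdk1 made up 50.2% in microglia. Hif1a was higher in microglia at the wider call (0.95 ± 0.13, 0.45 under quantile normalization), and Pdk3 was not called (0.29 ± 0.14). In the pentose phosphate pathway, Pgd, the second dehydrogenase of its oxidative arm, read 419, 476 and 614 in astrocytes and 3721, 3968 and 3907 in microglia (log2 fold change 2.96 ± 0.12 (SE), adjusted p = 1.68e-11). The groups were far apart for Pgd. G6pdx (1.50 ± 0.12), the first dehydrogenase of that arm, and Taldo1 (2.09 ± 0.10), the transaldolase, were also higher in microglia at the strict call. Tkt, the transketolase, passed the wider call at 0.38 ± 0.11 but turned to -0.25 under quantile normalization, and Pgls, the lactonase between the dehydrogenases, was not called (0.07 ± 0.12).

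**Figure D1:**
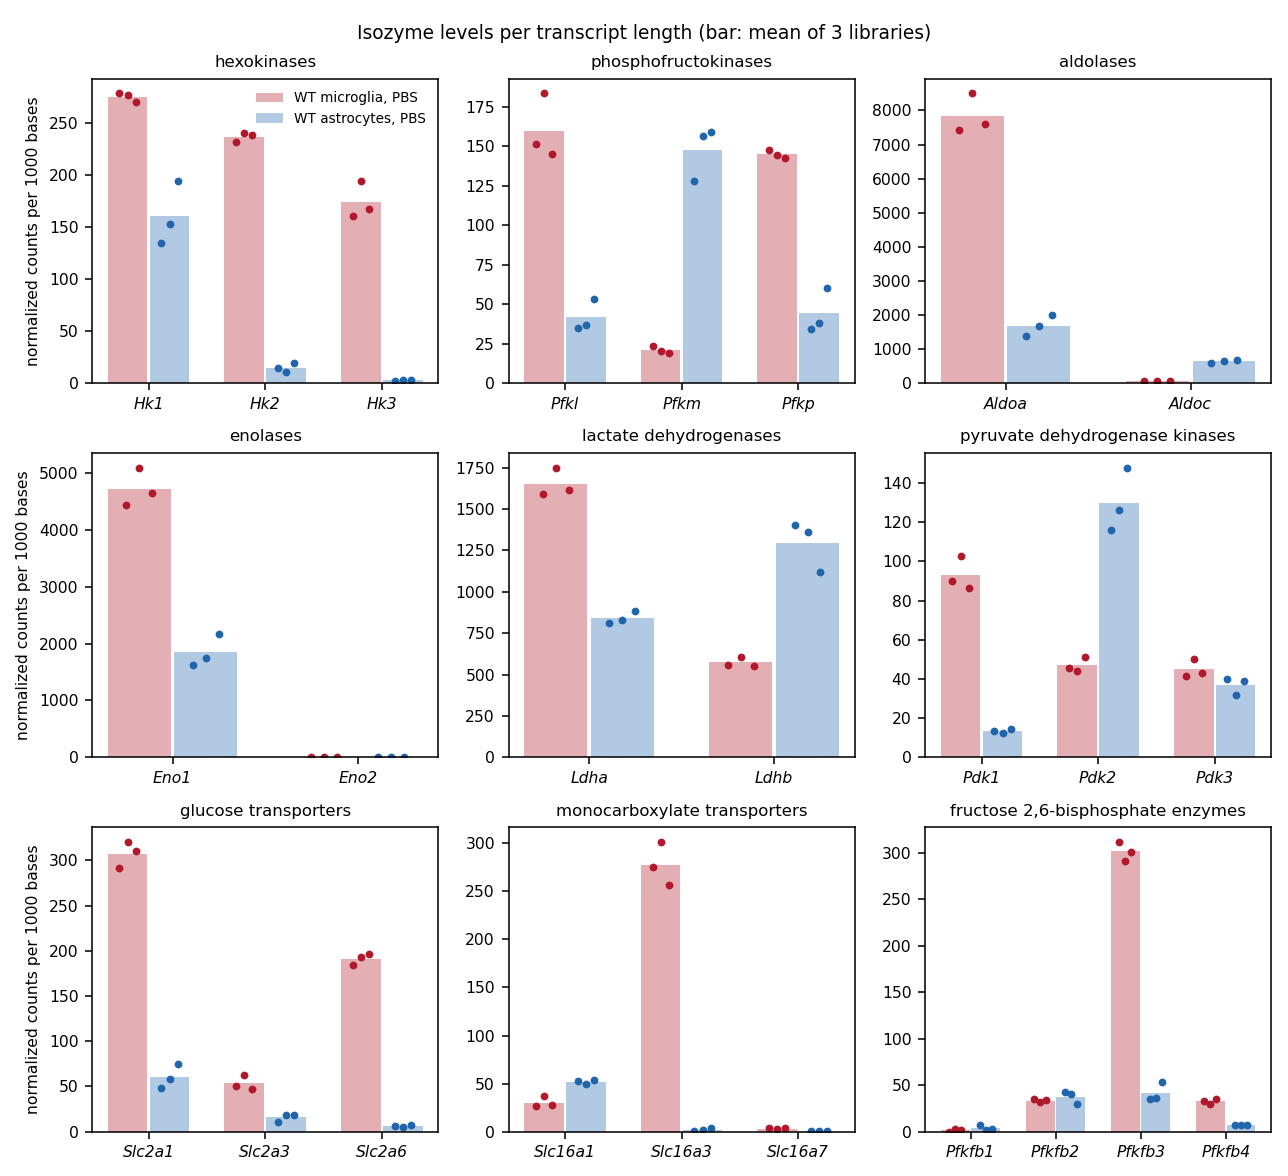
Levels of isozymes in quiescent WT microglia and quiescent WT astrocytes for 9 families. The linear axis gives normalized counts per 1000 bases of transcript, with a point per library and a bar for the mean. Hk1 supplied 90.4% of hexokinase RNA in astrocytes and 40.1% in microglia, and Slc16a1 supplied 95.4% and 9.68% of transporter RNA.

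LPS lowered the RNA of most members in WT microglia while a few rose sharply. Among 37 members tested, 3 rose (Eno2, Hk3 and Hif1a) and 6 fell (Slc16a7, Pdk1, Ldhb, Pdk2, Slc2a3 and Slc16a3) at the strict call, or 5 without Slc16a7, which reached the minimum mean only through its quiescent level, beside 10.2% and 10.6% of the 10866 genes tested. With the wider call 9 rose and 21 fell, beside 28.6% and 28.3%. The members' median was -0.42, against 0.00 over all genes. Quantile normalization gave 2 rises and 7 falls at the strict call and 6 and 25 at the wider one. All members together took 1.56 to 1.69% of the reads of a quiescent and 1.08 to 1.20% of those of an LPS library. The 12 microglia markers fell from sums of 68409, 73377 and 67797 to 25599.7, 25757 and 25849 in the same libraries, and the oligodendrocyte lineage markers from 8136, 8502 and 8455 to 1001, 1023 and 1025, of which Cspg4 alone made up 89.7% in the quiescent libraries (Mog at 0). Other markers rose: the astrocyte markers summed to 1031, 921 and 1028 before and 1439, 1155 and 1686 after LPS (2 of 10 tested higher at the strict call, Gja1 and Slc1a2, and none lower), and the pericyte and fibroblast markers to 74.8, 38.8 and 35.1 and 151, 159 and 129 (1 of 4 tested higher, Dcn, with Kcnj8 at 0). Of 3 endothelial markers tested, Pecam1 and Kdr were higher and Flt1 lower at the strict call. Pecam1 and Dcn reached the minimum mean only through their level after LPS. The part of all these markers and of the change in sex in the members' results was not tested.

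RNA for uptake and trapping of glucose moved in several directions. Slc2a3 (GLUT3) read 172, 215 and 160.5 in quiescent and 66.8, 77.4 and 85.9 in LPS-treated microglia. Each LPS library was lower than each quiescent one (log2 fold change -1.23 ± 0.15 (SE), adjusted p = 5.24e-05), whereas Slc2a1 (0.63 ± 0.08) and Slc2a6 (0.34 ± 0.09) rose at the wider call. Slc2a6 missed that call without WT quiescent microglia replicate 1 (0.31, adjusted p = 0.0546) and under quantile normalization (0.22, adjusted p = 0.0959). Hk3, the hexokinase found in myeloid cells, read 441, 543 and 465 before and 1330.0, 1199.8 and 1112 after LPS (log2 fold change 1.33 ± 0.11 (SE), adjusted p = 1.74e-06). Its groups did not overlap. Hk2 rose by 0.56 ± 0.11 at the wider call and Hk1 was not called (-0.08 ± 0.08), so that Hk3 went from 25.4% to 41.8% of hexokinase RNA per length. In upper glycolysis Pfkm (-0.82), Pfkp (-0.51), Gpi1 (-0.45) and Tpi1 (-0.29) fell at the wider call, while Aldoc (-0.43), Pfkl (-0.26) and Aldoa (-0.21) were not called. Pfkm missed the call without WT quiescent microglia replicate 1 (-0.73, adjusted p = 0.0550), and Tpi1 without any 1 of WT quiescent microglia replicates 2 and 3 and WT LPS microglia replicates 2 and 3 (-0.30 to -0.22, adjusted p 0.0501 to 0.0804) and with no intensity trend (adjusted p = 0.0589). Of the enzymes that set phosphofructokinase activity, Pfkfb3 rose (0.58) and Pfkfb2 (-0.92) and Pfkfb4 (-0.45) fell at the wider call, Pfkfb4 missing it without any 1 of WT quiescent microglia replicates 1 and 3 (-0.44 to -0.40, adjusted p 0.0587 to 0.0797) and in DESeq2 (adjusted p = 0.0545). Pfkfb3 thereby made up 90.9% of Pfkfb RNA per length, against 81.7% at rest. Under quantile normalization the falls of Gpi1 (-0.75) and Tpi1 (-0.52) were over 1.5 times as large and the rises of Hk2 (0.33) and Pfkfb3 (0.35) smaller by as much.

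In lower glycolysis Eno2 read 5.58, 21.04 and 6.81 at rest and 141, 150.0 and 133 with LPS. It was at a few counts in 2 quiescent libraries and above 100 in each LPS library (log2 fold change 3.77 ± 0.38 (SE), adjusted p = 1.27e-05), the largest rise among the members. Even so, Eno2 reached 1.76% of enolase RNA per length, the rest being Eno1. Eno1 (-0.53), Pkm (-0.63), Gapdh (-0.46) and Pgam1 (-0.23) fell at the wider call and Pgk1 rose (0.31), though Pgk1 was 0.03 and not called under quantile normalization (adjusted p = 0.740). Pgam1 missed the call without any 1 of WT quiescent microglia replicates 2 and 3 and WT LPS microglia replicates 2 and 3 (-0.23 to -0.20, adjusted p 0.0528 to 0.0937) and with no intensity trend (adjusted p = 0.0632). At the lactate step, Ldhb read 623, 688 and 619.9 at rest and 157, 116 and 129 with LPS (log2 fold change -2.27 ± 0.12 (SE), adjusted p = 9.46e-08). All 3 LPS libraries were far lower for Ldhb. Ldha fell by a smaller amount (-0.42, wider call), and its share of lactate dehydrogenase RNA per length went from 73.9 to 74.6% to 90.6 to 91.97%. Slc16a3 (MCT4) read 1019.5, 1134 and 958 before and 554, 449.9 and 483 after LPS (log2 fold change -1.07 ± 0.10 (SE), adjusted p = 9.20e-06). Slc16a7 (MCT2) read 30.4, 27.3 and 31.8 before and 2.94, 3.69 and 7.81 after LPS (log2 fold change -2.50 ± 0.37, SE). Neither gene's groups overlapped. Slc16a3 missed the strict call without any 1 of WT quiescent microglia replicate 2 and WT LPS microglia replicate 2 (-0.999 to -0.998, adjusted p 5.93e-05 to 0.000151), and Slc16a7 without any 1 of WT quiescent microglia replicates 1, 2 and 3 (-2.56 to -2.45, adjusted p 0.00132 to 0.00211); Slc16a7 reached the minimum mean only through its quiescent level, so its call is no support for a fall of the members. Slc16a1 (MCT1) was not called (0.12). Quantile normalization made several falls over 1.5 times as large: Eno1 -0.90, Pkm -1.11, Gapdh -0.99, Pgam1 -0.51 and Ldha -0.69.

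Of the kinases of pyruvate dehydrogenase, 2 fell and 1 was not called. Pdk1 read 399, 463 and 386 at rest and 72.0, 87.3 and 89.8 with LPS (log2 fold change -2.31 ± 0.13 (SE), adjusted p = 9.79e-08). Pdk2 read 87.8, 86.3 and 99.1 at rest and 23.5, 18.4 and 31.3 with LPS (log2 fold change -1.89 ± 0.21 (SE), adjusted p = 2.33e-05). Every LPS library was below every quiescent one for both, whereas Pdk3 (0.05) and Pdha1 (-0.12) were not called. Pdk3 rose from 24.3% to 60.0% of the RNA of the 3 kinases per length as Pdk1 and Pdk2 fell. Hif1a read 1438, 1447 and 1484 at rest and 2459, 3806 and 3555 with LPS (log2 fold change 1.14 ± 0.14 (SE), adjusted p = 5.73e-05). Its LPS libraries were spread more widely than the quiescent ones but all lay above them. Hif1a missed the strict call under quantile normalization (0.90, adjusted p = 0.000115) and with no intensity trend (adjusted p = 0.00151). In the pentose phosphate pathway G6pdx, the entry enzyme, rose at the wider call (0.38) but not under quantile normalization (0.14, adjusted p = 0.153), while Pgd (-0.38), Pgls (-0.46), Taldo1 (-0.70) and Tkt (-0.58) fell. Pgls missed the call without any 1 of WT quiescent microglia replicate 2 and WT LPS microglia replicate 3 (-0.38 to -0.37, adjusted p 0.0564 to 0.0655), and Pgd was -0.64 under quantile normalization.

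In WT astrocytes IL-1α, TNFα and C1q raised members from glucose uptake to lactate export and lowered Aldoc. Of the 36 members tested, 9 rose and 1 fell at the strict call, beside 6.0% and 5.54% of the 12336 genes tested. Under the wider call 16 rose and 5 fell, beside 19.1% and 19.2%. The members' median was 0.29 against 0.01 over all genes. The strict count of 10 went to 4 without activated replicate 1, 6 without activated replicate 3, 6 without quiescent replicate 2 and 4 when limma was run with no intensity trend. DESeq2 and edgeR each made 10 strict calls. Oligodendrocyte lineage markers summed to 12756, 12725 and 13117 in quiescent and 4746, 4874 and 4705 in activated WT astrocytes, with Olig1 the most abundant of the 11 (Mog at 0 in the quiescent libraries). Of other lists, 9 neuron markers summed to 3874, 4112 and 3392 and 1822, 2025 and 2047, a fall of Map2 alone while 3 of the 7 tested rose at the strict call, Nefl and Nefm the most, 8 pericyte and fibroblast markers to 40.2, 49.1 and 82.0 and 244, 225 and 201.2 (Lum and Dcn higher, Kcnj8 at 0), 8 endothelial markers to 36.2, 41.1 and 59.1 and 579, 623 and 656 (mostly Flt1, with Cldn5 and Ly6c1 at 0), and 12 astrocyte markers to 23221, 25458 and 31776 and 22177, 22440.0 and 23098, of which Fgfr3 and Hepacam fell at the strict call and 8 of 12 at the wider one, with 1 rising. Lum, Dcn and Nefl reached the minimum mean only through their level in activated astrocytes. The part of all these markers in the members' results was not tested.

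RNA of all 3 glucose transporters rose. Slc2a1 (GLUT1) read 184, 219 and 272 in quiescent and 536, 424 and 465 in activated astrocytes (log2 fold change 1.09 ± 0.14 (SE), adjusted p = 0.000120). Slc2a3 (GLUT3) read 48.9, 81.4 and 83.8 in quiescent and 182, 180.4 and 196 in activated astrocytes (log2 fold change 1.41 ± 0.19 (SE), adjusted p = 0.000151). All activated libraries were higher for both, and Slc2a6 rose at the wider call (0.92). Slc2a1 missed the strict call without any 1 of WT quiescent astrocytes replicates 1 and 2 and WT activated astrocytes replicates 1 and 3 (0.95 to 1.10, adjusted p 5.04e-05 to 0.00151), Slc2a3 without any 1 of WT activated astrocytes replicates 1 and 3 (1.37 to 1.42, adjusted p 0.00146 to 0.00197), and Slc2a6 the wider call without any 1 of WT activated astrocytes replicates 1 and 2 (0.86 to 0.89, adjusted p 0.0646 to 0.0720). Hk2, the inducible hexokinase, read 90.8, 65.6 and 117 in quiescent and 216, 232 and 239 in activated astrocytes (log2 fold change 1.36 ± 0.18 (SE), adjusted p = 0.000136). All activated libraries were well above each quiescent one. Hk2 missed the strict call without any 1 of WT activated astrocytes replicates 1 and 3 (1.33 to 1.40, adjusted p 0.00112 to 0.00180). Hk1 (0.12) and Hk3 (0.16) were not called, and Hk2 went from 8.16% to 17.2% of hexokinase RNA per length.

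The committed step of glycolysis changed its isozymes. Pfkp, the platelet-type phosphofructokinase, read 165, 179.8 and 279 in quiescent and 519.7, 447 and 482 in activated astrocytes (log2 fold change 1.25 ± 0.17 (SE), adjusted p = 0.000150). Its groups did not overlap, and it missed the strict call without any 1 of WT quiescent astrocytes replicate 2 and WT activated astrocytes replicates 1 and 3 (1.16 to 1.25, adjusted p 0.00172 to 0.00194). At the wider call Pfkl rose (0.92) and Pfkm fell (-0.55), so that Pfkm went from 63.6% to 35.8% of phosphofructokinase RNA per length and Pfkp from 18.6% to 36.4%. Pfkfb3, the Pfkfb enzyme that mainly makes the activator, read 189, 193 and 279 in quiescent and 553, 456 and 450.1 in activated astrocytes (log2 fold change 1.16 ± 0.15 (SE), adjusted p = 0.000115). The activated libraries were all higher, and the strict call was missed without any 1 of WT quiescent astrocytes replicate 2 and WT activated astrocytes replicate 1 (1.06 to 1.07, adjusted p 0.00132 to 0.00150). Pfkfb4 (0.44) and Pfkfb2 (-0.19) were not called. Aldoc read 1919, 2072 and 2101 in quiescent and 482, 589 and 521 in activated astrocytes (log2 fold change -1.94 ± 0.09 (SE), adjusted p = 8.18e-08). Every activated library was low for Aldoc, the only strict fall among the members in this comparison. Aldoa, its ubiquitous counterpart, rose at the wider call (0.55), as did Tpi1 (0.49), and Aldoc went from 27.8% to 6.44% of aldolase RNA per length. Gpi1 was not called (0.21).

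In lower glycolysis Eno2 read 14.0, 11.8 and 12.8 in quiescent and 126, 99.8 and 96.6 in activated astrocytes (log2 fold change 2.96 ± 0.20 (SE), adjusted p = 8.10e-07). It was low in each quiescent library and many times higher in each activated one, again the largest rise, while reaching 2.03% of enolase RNA per length. Pkm (-0.50) and Pgk1 (-0.42), the ATP-forming enzymes, fell at the wider call, and Gapdh (0.03), Pgam1 (-0.17) and Eno1 (-0.18) were not called. Slc16a1 (MCT1), the main lactate transporter of these cells by RNA, read 268, 249 and 265 in quiescent and 651, 579.8 and 684 in activated astrocytes (log2 fold change 1.29 ± 0.09 (SE), adjusted p = 1.33e-06). The groups were well apart. Ldha (0.13), Ldhb (-0.26) and Slc16a3 (0.85) were not called, and Slc16a7 was under the filter. Hif1a read 913, 1006 and 1122 in quiescent and 2637, 2560.2 and 2715 in activated astrocytes (log2 fold change 1.38 ± 0.09 (SE), adjusted p = 7.58e-07). All activated libraries were far above any quiescent one. Pdha1 fell at the wider call (-0.38), and Pdk1 (0.29), Pdk2 (-0.11) and Pdk3 (-0.09) were not called. In the pentose phosphate pathway Pgd read 487, 548 and 689 in quiescent and 1344, 1098 and 1085 in activated astrocytes (log2 fold change 1.04 ± 0.13 (SE), adjusted p = 9.17e-05). Its activated libraries were all higher, and it missed the strict call without any 1 of WT quiescent astrocytes replicates 1 and 2 and WT activated astrocytes replicate 1 (0.93 to 1.01, adjusted p 4.87e-05 to 0.00144). Taldo1 (0.78), G6pdx (0.51) and Pgls (0.30) rose at the wider call, Pgls missing it without any 1 of WT quiescent astrocytes replicate 2 and WT activated astrocytes replicates 2 and 3 (0.27 to 0.30, adjusted p 0.0553 to 0.0879), and Tkt was not called (0.01). With no intensity trend the strict call was missed by Slc2a1 (adjusted p = 0.00268), Slc2a3 (adjusted p = 0.00231), Hk2 (adjusted p = 0.00239), Pfkp (adjusted p = 0.00336), Pfkfb3 (adjusted p = 0.00270) and Pgd (adjusted p = 0.00266), and in DESeq2 the wider call was missed by Slc2a6 (adjusted p = 0.0553) and Pgls (adjusted p = 0.0543).

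**Figure D2:**
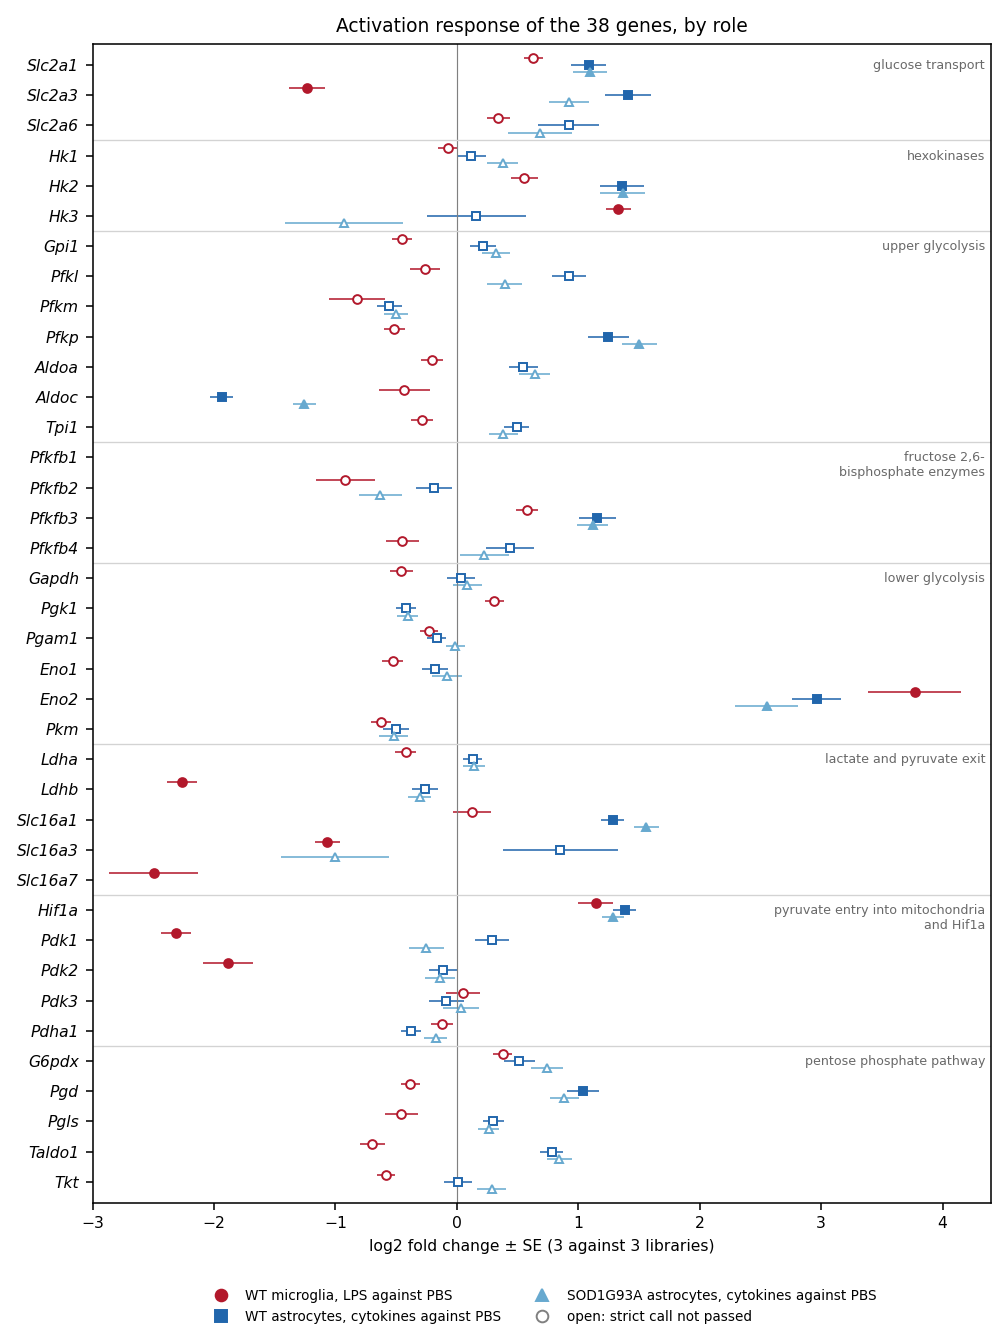
Log2 fold change of each member tested (point) with its standard error (bar) in LPS-treated WT microglia, cytokine-treated WT astrocytes and cytokine-treated SOD1G93A astrocytes, ordered by role, filled where the strict call was passed. Eno2 rose most in each (3.77, 2.96 and 2.55), and Aldoc is the strict fall in astrocytes of both genotypes (-1.94 and -1.26).

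Whether a member responded differently in the 2 cell types was tested as the difference between the LPS response of WT microglia and the cytokine response of WT astrocytes, on the scale common to their 12 libraries. The agents differ as well as the cells. Ddx3y also changed in the microglia pair, and marker sums of other cell types changed in both pairs, as given above. The part of sex and of these markers in the differences was not tested. Of the 37 members tested, 1 had a more positive and 9 a more negative response in microglia at the strict call, beside 6.73% and 8.44% of the 12334 genes tested. For the wider call these were 3 and 21, beside 20.1% and 20.9%. The members' median difference was -0.57 against 0.00 over all genes.

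Slc2a3 (GLUT3) had opposite responses. It read 202, 249 and 187 in quiescent microglia, 79.0, 89.6 and 101 after LPS, 42.1, 70.6 and 74.6 in quiescent astrocytes and 157, 156 and 168 after the cytokines. The LPS libraries were the lower and the cytokine libraries the higher of their pair, and the change was -1.23 in microglia against 1.39 in astrocytes (difference -2.62 ± 0.27, adjusted p = 3.22e-06). Pfkp read 614, 602 and 595 in quiescent microglia, 425, 431 and 417 after LPS, 142, 156 and 248 in quiescent astrocytes and 448, 388 and 414 after the cytokines. It was lower after LPS and higher after the cytokines (-0.51 in microglia against 1.23 in astrocytes; difference -1.74 ± 0.22, adjusted p = 1.93e-05). Pfkl read 567, 687 and 543 in quiescent microglia, 573, 438 and 497 after LPS, 130.2, 138 and 198 in quiescent astrocytes and 303, 283 and 273 after the cytokines. Only its astrocyte groups were apart (-0.25 in microglia against 0.90 in astrocytes; difference -1.16 ± 0.21, adjusted p = 0.000564), and Pfkl missed the strict call without any 1 of WT quiescent microglia replicates 1 and 2, WT LPS microglia replicates 2 and 3, WT quiescent astrocytes replicates 1 and 2 and WT activated astrocytes replicates 1, 2 and 3 (-1.20 to -1.04, adjusted p 0.00136 to 0.00235). Aldoc read 157, 163 and 151 in quiescent microglia, 141, 78.2 and 144 after LPS, 1650.2, 1797 and 1871 in quiescent astrocytes and 415, 511 and 448 after the cytokines. Its large fall was in astrocytes (-0.43 in microglia against -1.95 in astrocytes; difference 1.53 ± 0.25, adjusted p = 0.000224), the 1 strict difference toward microglia, and Aldoc missed that call, leaving 0, without WT activated astrocytes replicate 1 (1.46, adjusted p = 0.001002).

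On the way out of glycolysis, Ldhb read 732, 797 and 723 in quiescent microglia, 186, 134 and 152 after LPS, 1822, 1766 and 1456 in quiescent astrocytes and 1425, 1415 and 1298 after the cytokines. Its fall was in microglia (-2.26 in microglia against -0.28 in astrocytes; difference -1.98 ± 0.17, adjusted p = 3.71e-07). Slc16a1 (MCT1) read 117, 163 and 123 in quiescent microglia, 132, 159 and 147 after LPS, 230.3, 216 and 236 in quiescent astrocytes and 560.4, 503 and 588 after the cytokines. It rose in astrocytes and its microglia groups overlapped (0.13 in microglia against 1.27 in astrocytes; difference -1.14 ± 0.18, adjusted p = 0.000179), and Slc16a1 missed the strict call without WT quiescent microglia replicate 2 (-0.999, adjusted p = 0.000286). Pdk1 read 468, 536 and 449.9 in quiescent microglia, 85.1, 101 and 106 after LPS, 70.1, 63.7 and 76.0 in quiescent astrocytes and 78.0, 82.8 and 92.6 after the cytokines. Pdk2 read 103, 99.9 and 116 in quiescent microglia, 27.8, 21.3 and 36.8 after LPS, 260.3, 282 and 331 in quiescent astrocytes and 258, 242 and 296 after the cytokines. Both kinases dropped in every LPS library and were not called in astrocytes (Pdk1 -2.31 in microglia against 0.27 in astrocytes, difference -2.58 ± 0.19, adjusted p = 8.42e-08). For Pdk2 the changes were -1.89 in microglia against -0.13 in astrocytes (difference -1.75 ± 0.25, adjusted p = 5.44e-05). In the pentose phosphate pathway, Pgd read 3721, 3968 and 3907 in quiescent microglia, 3137, 2892 and 2918 after LPS, 419, 476 and 614 in quiescent astrocytes and 1157, 952 and 932 after the cytokines. Taldo1 read 1285, 1472 and 1252 in quiescent microglia, 935, 757 and 795 after LPS, 316, 299 and 319 in quiescent astrocytes and 575, 537 and 480.3 after the cytokines. Both were lower after LPS and higher after the cytokines (Pgd -0.37 in microglia against 1.02 in astrocytes, difference -1.40 ± 0.18, adjusted p = 1.96e-05). The changes of Taldo1 were -0.69 in microglia against 0.76 in astrocytes (difference -1.45 ± 0.15, adjusted p = 1.94e-06).

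At the wider call only, the response was more negative in microglia for Slc2a6 (-0.55), Hk2 (-0.78), Gpi1 (-0.64), Aldoa (-0.73), Tpi1 (-0.75), Pfkfb3 (-0.55), Pfkfb4 (-0.86), Ldha (-0.53), Slc16a3 (-1.88), Slc16a7 (-2.39), Pgls (-0.73) and Tkt (-0.57), and more positive for Hk3 (1.19) and Pgk1 (0.75). Slc16a3, Slc16a7 and Hk3 have few counts in astrocytes and reached the minimum mean only through microglia, so their calls are no support for the counts of 3 and 21. Slc2a6 missed this call without any 1 of WT quiescent microglia replicates 1, 2 and 3, WT LPS microglia replicates 2 and 3, WT quiescent astrocytes replicate 2 and WT activated astrocytes replicates 1 and 2 (-0.58 to -0.42, adjusted p 0.0749 to 0.112), and Pfkfb3 without any 1 of WT quiescent microglia replicates 1, 2 and 3, WT LPS microglia replicates 1 and 3, WT quiescent astrocytes replicates 1 and 2 and WT activated astrocytes replicates 1 and 2 (-0.59 to -0.44, adjusted p 0.0510 to 0.110). Slc2a6 also missed it in DESeq2 (adjusted p = 0.152), in edgeR (0.0762), with no filter (0.0580) and with a pseudocount of 5 (0.102), and Pfkfb3 in DESeq2 (0.0501), with no filter (0.0519) and with no trend (0.0808). With no trend the strict call was missed by Aldoc (adjusted p = 0.00175) and Pfkl (adjusted p = 0.00315). Quantile normalization gave Hk2 -1.31, Aldoa -1.17, Pfkfb3 -0.96, Slc16a7 -1.53 and Pgk1 0.49, each moved by over 1.5 times. The remaining 13 members ranged from -0.71 to 0.87. They include Eno2 (0.87 ± 0.49, adjusted p = 0.173), Hif1a (-0.22 ± 0.19, adjusted p = 0.389), Slc2a1 (-0.43 ± 0.18, adjusted p = 0.0762) and G6pdx (-0.11 ± 0.17, adjusted p = 0.635), which each passed a call upward in both cell types when those were tested alone, G6pdx in microglia not under quantile normalization.

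SOD1G93A astrocytes were asked the same question as WT ones, on a scale common to the 12 astrocyte libraries. Of the 36 members tested, 7 rose and 1 fell at the strict call, beside 6.74% and 6.59% of the 12269 genes tested. At the wider call 18 rose and 6 fell, beside 21.9% and 21.5%. The members' median was 0.27 against 0.00 over all genes. Oligodendrocyte lineage markers summed to 15351, 13572 and 13485 in quiescent and 4777, 4612 and 4981 in activated SOD1G93A astrocytes (Olig1 the most abundant), endothelial markers to 28.9, 30.5 and 29.4 and 508, 502 and 487 (mostly Flt1, with Cldn5, Cdh5 and Ly6c1 at 0), pericyte and fibroblast markers to 41.1, 37.9 and 37.97 and 149, 171 and 164, and neuron markers to 3965, 4112 and 4027 and 1806, 1831 and 1952, Map2 falling while Nefl and Nefm rose. Nefl reached the minimum mean only through its level in activated libraries. Astrocyte markers summed to 26382, 22831 and 19929.6 and 23103, 22879.8 and 23709, of which Gfap rose and Fgfr3 and S100b fell at the strict call. The part of these in the members' results was not tested.

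In the SOD1G93A response the members past the strict call again ran from glucose transport to lactate export. Slc2a1 read 221, 225 and 169 in quiescent and 402, 466 and 440.2 in activated libraries (log2 fold change 1.09 ± 0.14 (SE), adjusted p = 5.76e-06). Hk2 read 103, 96.5 and 66.4 in quiescent and 242, 223 and 215 in activated libraries (log2 fold change 1.37 ± 0.18 (SE), adjusted p = 9.03e-06). Both were higher in all activated libraries, Slc2a1 missing the strict call without SOD1G93A quiescent astrocytes replicate 3 (0.96, adjusted p = 3.84e-05). Pfkp read 215, 190.0 and 191 in quiescent and 548, 606 and 541 in activated libraries (log2 fold change 1.50 ± 0.15 (SE), adjusted p = 1.81e-07). Pfkfb3 read 183, 181 and 191 in quiescent and 406, 399 and 404 in activated libraries (log2 fold change 1.119 ± 0.13 (SE), adjusted p = 1.47e-06). Neither overlapped between groups. Aldoc read 1590.2, 1648 and 1389 in quiescent and 677, 601 and 655 in activated libraries (log2 fold change -1.26 ± 0.09 (SE), adjusted p = 6.59e-09). It was low in all activated libraries, the strict fall here too. Eno2 read 12.1, 12.8 and 27.9 in quiescent and 115, 92.9 and 96.1 in activated libraries (log2 fold change 2.55 ± 0.26 (SE), adjusted p = 3.38e-07). Quiescent replicate 3 was the highest of its group for Eno2 and still far under the activated libraries. Slc16a1 read 231, 224 and 183 in quiescent and 561, 672 and 652 in activated libraries (log2 fold change 1.56 ± 0.11 (SE), adjusted p = 2.27e-09). Hif1a read 1099, 975 and 924 in quiescent and 2372, 2589.9 and 2344 in activated libraries (log2 fold change 1.29 ± 0.09 (SE), adjusted p = 4.13e-09). Both were at least doubled in every activated library.

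Past the wider call only, the rises in SOD1G93A astrocytes were Slc2a3 (0.92), Slc2a6 (0.69), Hk1 (0.38), Gpi1 (0.32), Pfkl (0.39), Aldoa (0.64), Tpi1 (0.38), G6pdx (0.74), Pgd (0.88), Pgls (0.26) and Taldo1 (0.84), and the falls Pfkm (-0.50), Pfkfb2 (-0.63), Pgk1 (-0.41), Pkm (-0.52) and Ldhb (-0.31). The call was missed by Slc2a6 without any 1 of WT activated astrocytes replicates 1, 2 and 3, SOD1G93A quiescent astrocytes replicates 2 and 3 and SOD1G93A activated astrocytes replicates 1 and 3 (0.52 to 0.69, adjusted p 0.0554 to 0.181), by Hk1 without any 1 of SOD1G93A quiescent astrocytes replicates 2 and 3 and SOD1G93A activated astrocytes replicates 1 and 3 (0.26 to 0.36, adjusted p 0.0622 to 0.115) and by Gpi1 without any 1 of SOD1G93A quiescent astrocytes replicates 2 and 3 and SOD1G93A activated astrocytes replicates 1 and 3 (0.23 to 0.31, adjusted p 0.0629 to 0.129). It was also missed by Pfkl without any 1 of WT activated astrocytes replicates 2 and 3, SOD1G93A quiescent astrocytes replicates 2 and 3 and SOD1G93A activated astrocytes replicates 2 and 3 (0.27 to 0.42, adjusted p 0.0501 to 0.178), by Tpi1 without any 1 of SOD1G93A quiescent astrocytes replicates 2 and 3 and SOD1G93A activated astrocytes replicate 2 (0.26 to 0.36, adjusted p 0.0515 to 0.0893) and by Pfkfb2 without any 1 of SOD1G93A quiescent astrocytes replicate 3 and SOD1G93A activated astrocytes replicate 3 (-0.53 to -0.44, adjusted p 0.0530 to 0.0597). Ldhb missed it without any 1 of SOD1G93A quiescent astrocytes replicate 2 and SOD1G93A activated astrocytes replicate 1 (-0.28 to -0.27, adjusted p 0.0591 to 0.0676), and Pgls without any 1 of SOD1G93A quiescent astrocytes replicates 1 and 2 and SOD1G93A activated astrocytes replicate 2 (0.22 to 0.24, adjusted p 0.0667 to 0.0852). Quantile normalization ended the call for Gpi1 (0.20, adjusted p = 0.0961), Pfkl (0.37, adjusted p = 0.0587) and Pgls (0.18, adjusted p = 0.108), no trend for Hk1 (adjusted p = 0.0585), Gpi1 (adjusted p = 0.0538) and Pfkl (adjusted p = 0.0709), no filter for Slc2a6 (adjusted p = 0.0840), Gpi1 (adjusted p = 0.0511) and Pfkl (adjusted p = 0.0545), DESeq2 for Slc2a6 (adjusted p = 0.124) and Pfkl (adjusted p = 0.0765), and edgeR for Slc2a6 (adjusted p = 0.0673) and Pfkl (adjusted p = 0.0574). The 12 members not called ranged from -1.004 (Slc16a3) to 0.29 (Tkt).

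The difference between the genotypes in this response was tested directly, and 0 of 36 members passed the strict call in limma, beside 0.0% of the 12269 genes tested. DESeq2 and edgeR also gave 0, and 4 members had an unadjusted p under 0.05, beside 1018 of 12269 genes. Aldoc alone passed the wider call, beside 0.277% of all genes, and did so in DESeq2 and edgeR too. It read 1819.9, 1966 and 1987 in quiescent and 457, 557 and 492 in activated WT astrocytes. The SOD1G93A libraries read 1590.2, 1648 and 1389 at rest and 677, 601 and 655 when activated. Aldoc fell in both genotypes without overlap of their groups, by 1.94 in WT and by 1.26 in SOD1G93A astrocytes on the log2 scale, a difference of 0.68 ± 0.13 (adjusted p = 0.0400). Aldoc missed the call, leaving 0 members, without any 1 of WT quiescent astrocytes replicate 2, WT activated astrocytes replicates 1 and 3, SOD1G93A quiescent astrocytes replicates 2 and 3 and SOD1G93A activated astrocytes replicates 1, 2 and 3 (0.61 to 0.73, adjusted p 0.0547 to 0.167). It also missed it with no filter (adjusted p = 0.0627) and with no trend (adjusted p = 0.159). The other members ranged from -1.85 (Slc16a3, which has few counts in astrocytes) to 0.28. Side by side, and with no library shared, the WT and SOD1G93A responses of the members past the strict call upward in WT were 1.08 and 1.09 for Slc2a1, 1.41 and 0.92 for Slc2a3, 1.35 and 1.37 for Hk2, 1.25 and 1.50 for Pfkp, 1.15 and 1.119 for Pfkfb3, 2.95 and 2.55 for Eno2, 1.28 and 1.56 for Slc16a1, 1.38 and 1.29 for Hif1a and 1.04 and 0.88 for Pgd. Those of the other members with an unadjusted p under 0.05 were 0.92 and 0.39 for Pfkl, 0.28 and -0.25 for Pdk1 and 0.85 and -1.004 for Slc16a3.

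Genotype itself was compared at rest and after activation; the comparisons below use the quiescent and activated libraries already described and share them with the responses. In quiescent astrocytes 0 of 36 members passed either call in limma, beside 0.0% (strict) and 0.057% (wider) of the 12271 genes tested. DESeq2 and edgeR also called 0, and 2 members had an unadjusted p under 0.05, beside 1068 of 12271 genes. The members' log2 fold changes ran from -0.32 for Aldoc, which read 2024, 2158 and 2177 in WT and 1740.0, 1819 and 1549.9 in SOD1G93A libraries, to 1.20 for Slc16a3, which read 4.91, 8.201 and 18.3 and 28.6, 23.6 and 16.3. The Aldoc groups did not overlap and the Slc16a3 groups did, at few counts (adjusted p = 0.437 and 0.507).

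In activated astrocytes 0 of 35 members passed the strict call in limma, beside 0.645% of the 12098 genes tested, and 0 in DESeq2 and edgeR, with 10 at an unadjusted p under 0.05, beside 2464 of 12098 genes. At the wider call 4 were higher and 2 lower in SOD1G93A astrocytes, beside 7.27% of all genes. This count of 6 went to 2 without WT activated replicate 1, 2 without WT activated replicate 2 and 1 with no intensity trend. Pfkl, the liver-type phosphofructokinase, read 303, 282 and 273 in WT and 166, 193 and 171 in SOD1G93A libraries (log2 fold change -0.69 ± 0.09 (SE), adjusted p = 3.42e-05). All SOD1G93A libraries were lower, and Pfkl kept the call without any 1 library. Pfkp, by contrast, read 448, 386 and 413 in WT and 503, 553 and 493 in SOD1G93A libraries (log2 fold change 0.31 ± 0.08 (SE), adjusted p = 0.0146). Its SOD1G93A libraries were all higher, and the call was missed without any 1 of WT activated astrocytes replicates 2 and 3 and SOD1G93A activated astrocytes replicate 2 (0.26 to 0.31, adjusted p 0.0535 to 0.122). Aldoc read 415, 508 and 446 in WT and 620.3, 548 and 597 in SOD1G93A libraries (log2 fold change 0.37 ± 0.08 (SE), adjusted p = 0.00580), and missed the call without WT activated astrocytes replicate 1 (0.30, adjusted p = 0.0669). Hk1 read 609.7, 648 and 699 in WT and 796, 721 and 800.2 in SOD1G93A libraries (log2 fold change 0.24 ± 0.07 (SE), adjusted p = 0.0372). Aldoc and Hk1 were higher in each SOD1G93A library, Hk1 missing the call without any 1 of WT activated astrocytes replicates 1 and 2 and SOD1G93A activated astrocytes replicates 1 and 3 (0.20 to 0.24, adjusted p 0.0644 to 0.242). Pdha1 read 1004, 976 and 1054 in WT and 1197, 1163 and 1311 in SOD1G93A libraries (log2 fold change 0.27 ± 0.06 (SE), adjusted p = 0.0104), and Pgd read 1158, 948 and 929.9 in WT and 865, 850.0 and 802 in SOD1G93A libraries (log2 fold change -0.26 ± 0.08 (SE), adjusted p = 0.0378). Neither pair of groups overlapped, and the call was missed by Pdha1 without any 1 of WT activated astrocytes replicates 1 and 2 (0.25 to 0.27, adjusted p 0.0612 to 0.0841) and by Pgd without any 1 of WT activated astrocytes replicates 1 and 2 and SOD1G93A activated astrocytes replicates 2 and 3 (-0.31 to -0.16, adjusted p 0.0563 to 0.311). With no trend all but Pfkl missed the call: Hk1 (adjusted p = 0.225), Pfkp (adjusted p = 0.153), Aldoc (adjusted p = 0.141), Pdha1 (adjusted p = 0.160) and Pgd (adjusted p = 0.269). Hk1 and Pgd missed it in DESeq2 (adjusted p = 0.0796 and 0.0521) and with no filter (0.0566 and 0.0660), and Hk1 under quantile normalization (0.0754). All 5 sex-linked genes tested passed the strict call here, 1 higher and 4 lower, Xist reading 2207, 2063 and 1825 in WT and 5802, 4574 and 3644 in SOD1G93A libraries and Ddx3y 176, 139 and 157 and 77.5, 77.6 and 67.6, and 5 of 11 astrocyte markers were higher and 2 lower at the wider call. Of 7 neuron markers tested 3 were lower at the wider call, Dcx at the strict one (-1.13), with sums of 1822, 2025 and 2047 in WT and 1806, 1831 and 1952 in SOD1G93A libraries (mostly Map2). Pericyte and fibroblast markers summed to 244, 225 and 201.2 and 149, 171 and 164 (Lum the most abundant), endothelial markers to 579, 623 and 656 and 508, 502 and 487 (mostly Flt1, with Cldn5, Cdh5 and Ly6c1 at 0), 1 gene of each being lower at the wider call. Their part in the members' results was not tested. The 29 members not called ranged from -0.66 to 0.15, and the members' median was 0.00 against 0.00 over all genes.

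In LPS-treated microglia 0 of 36 members differed between SOD1G93A and WT at either call in limma, beside 0.0% (strict) and 0.00936% (wider) of the 10679 genes tested. DESeq2 and edgeR called 0 as well, and 4 members had an unadjusted p under 0.05, beside 930 of 10679 genes. The third SOD1G93A library, set apart by Nos2, held the highest value of all 6 libraries for 21 of the 36 members tested and the lowest for 2, beside 29.7% and 26.5% of all genes tested. Slc16a3 read 551, 446 and 483 in WT and 609, 568 and 912 in SOD1G93A libraries (log2 fold change 0.47 ± 0.18 (SE), adjusted p = 0.571). Pdk1 read 71.5, 86.6 and 89.9 in WT and 70.2, 99.1 and 177 in SOD1G93A libraries (log2 fold change 0.38 ± 0.30 (SE), adjusted p = 0.677). For both, the third SOD1G93A library was the highest by a wide margin. Without it the members' median went from 0.15 to 0.06, 0 members passed either call, 1 had an unadjusted p under 0.05, and log2 fold changes ran from -0.28 (Eno2) to 0.28 (Pdk2).

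**Figure D3:**
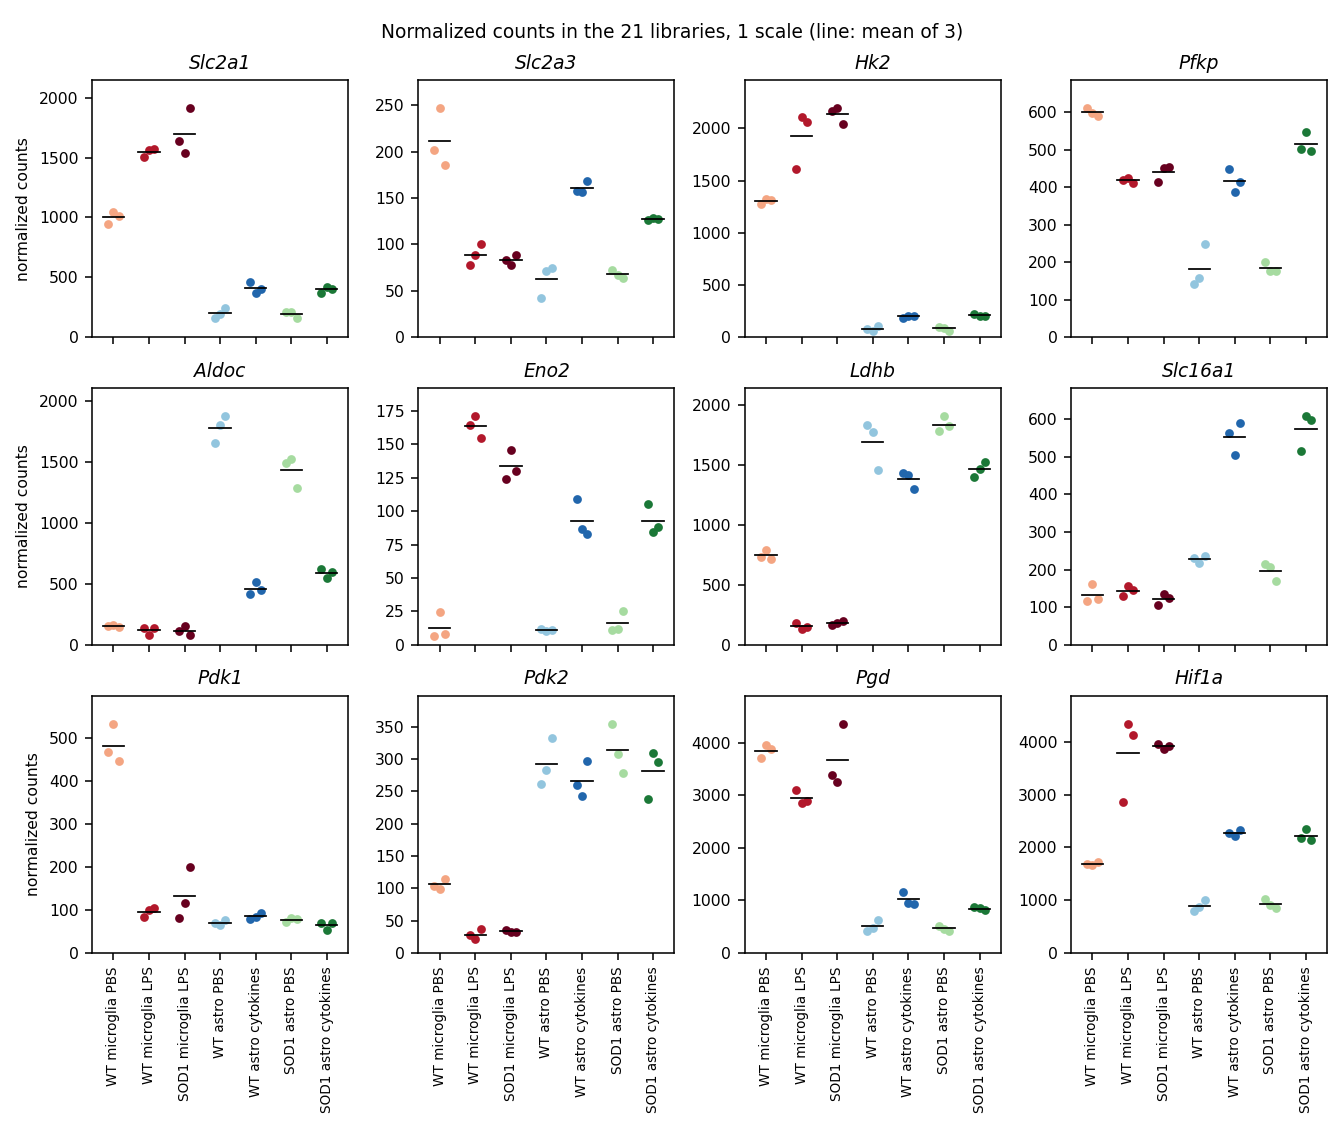
Normalized counts of 12 members in each of the 21 libraries (points, linear axis) with group means, for the 7 groups on a scale common to all libraries. Eno2 stands at 12.1, 10.3 and 11.4 in quiescent and 109, 86.7 and 83.1 in activated WT astrocytes, and Pdk1 at 467, 533 and 447 in quiescent and 84.0, 99.8 and 104 in LPS-treated WT microglia.

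Genes next to the members in metabolism were counted by list, with the LPS response of WT microglia first and the cytokine response of WT astrocytes second. Over all genes tested in microglia, 10.2% rose and 10.6% fell at the strict call, and 28.6% and 28.3% at the wider call. In astrocytes these shares were 6.0% and 5.54% at the strict call, and 19.1% and 19.2% at the wider call. Other glycolytic isozymes and regulators had 0 up and 1 down at the strict call (Pgm2l1 -1.85), 1 and 4 at the wider call, of 10 tested in microglia, and 0 up and 1 down at the strict call (Gpd1 -1.33), 2 and 3 at the wider call, of 10 tested in astrocytes. Other transporters of the Slc2a family had 0 up and 1 down at the strict call (Slc2a8 -2.65), 0 and 1 at the wider call, of 2 tested in microglia, and 0 up and 0 down at the strict call, 1 and 0 at the wider call, of 5 tested in astrocytes. Other monocarboxylate transporters and their chaperones had 0 up and 1 down at the strict call (Slc16a6 -1.34), 1 and 1 at the wider call, of 6 tested in microglia. Other pyruvate dehydrogenase genes and pyruvate carriers had 0 up and 1 down at the strict call (Mpc1 -1.46), 2 and 5 at the wider call, of 10 tested in microglia, and 1 up and 1 down at the strict call (Pdp1 1.51, Pcx -1.11), 1 and 2 at the wider call, of 11 tested in astrocytes. Other pentose phosphate genes had 0 up and 2 down at the strict call (Prps2 -1.74, H6pd -1.003), 1 and 4 at the wider call, of 7 tested in microglia, and 0 up and 0 down at the strict call, 1 and 2 at the wider call, of 7 tested in astrocytes. The hypoxia-inducible factor pathway had 5 up and 1 down at the strict call (Adm 4.55, Vegfa 3.74, Egln1 -1.34), 10 and 6 at the wider call, of 19 tested in microglia, and 1 up and 0 down at the strict call (Ndrg1 1.93), 8 and 2 at the wider call, of 18 tested in astrocytes. Adm and Vegfa, classical targets of the factor, and Egln1, an oxygen sensor that marks Hif1a for breakdown, led there in microglia, Adm reaching the minimum mean only through its level after LPS. Glycogen metabolism had 1 up and 1 down at the strict call (Gbe1 1.02, Ppp1r3c -1.08), 1 and 6 at the wider call, of 15 tested in astrocytes. Gluconeogenesis had 0 up and 0 down at the strict call, 0 and 1 at the wider call, of 2 tested in microglia, and 0 up and 0 down at the strict call, 0 and 0 at the wider call, of 2 tested in astrocytes. The citrate cycle with itaconate synthesis had 1 up and 3 down at the strict call (Irg1 6.603, Suclg2 -1.37, Idh1 -1.18), 3 and 9 at the wider call, of 19 tested in microglia, and 0 up and 0 down at the strict call, 1 and 7 at the wider call, of 19 tested in astrocytes. Irg1 makes itaconate, a product of activated macrophages. Between the genotypes in activated astrocytes, Pck2, the mitochondrial enzyme that makes phosphoenolpyruvate, was the 1 strict call of these lists (1.07). Of all genes tested there, 0.645% passed the strict call.

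Genes often used as references were not level either. In LPS-treated microglia Actb changed by -0.85 ± 0.09 and Hprt by -1.20 ± 0.11, against -0.22 ± 0.10 for Rplp0 and -0.07 ± 0.10 for Ppia, which were not called. In cytokine-treated WT astrocytes Aldh1l1, an astrocyte marker, changed by -0.96 ± 0.12, and Gapdh, a member and a common reference, by 0.03 ± 0.12. Between quiescent microglia and astrocytes Gapdh differed by 1.53 ± 0.13 and Actb by 2.46 ± 0.15.

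The promoters of the members, among them the 7 that rose at the strict call in astrocytes of both genotypes, were read for the letters ACGTG and GCGTG, the known core of the sites bound by hypoxia-inducible factors, and for CACGTG, the E-box, on both strands of the 250 bases before the transcription start. RefSeq promoters (build GRCm38.p6) matched 36 of the 38 members; Slc2a3 and Slc16a7 are not in that table. Where a gene has several starts the first one listed was read. ACGTG was found in 14 of the 36, against 16.6% of 32851 promoters of the same length, GCGTG in 20 (28.2% of promoters), either one in 29 (38.6%), and CACGTG in 6 (6.02%). Each CACGTG also holds ACGTG on both strands, so it counts as 2 ACGTG matches. Slc2a1 holds 1 ACGTG and 1 GCGTG and lies at chr4:119108495-119108744 (+ strand). Hk2 holds 2 ACGTG at chr6:82774455-82774704 (- strand). Pfkp holds 3 GCGTG at chr13:6648772-6649021 (- strand). Pfkfb3 holds 1 ACGTG at chr2:11553930-11554179 (- strand). Slc16a1 holds 2 ACGTG, from its 1 CACGTG, and 2 GCGTG at chr3:104638414-104638663 (+ strand). Hif1a holds 3 ACGTG, 2 of them from its 1 CACGTG, at chr12:73907617-73907866 (+ strand). Eno2, the member that rose most, has no match at chr6:124769674-124769923 (- strand). A match is a description of these letters only. The 7 sequences run 5′ to 3′ toward the start, with ACGTG and GCGTG on either strand in capitals.
Slc2a1: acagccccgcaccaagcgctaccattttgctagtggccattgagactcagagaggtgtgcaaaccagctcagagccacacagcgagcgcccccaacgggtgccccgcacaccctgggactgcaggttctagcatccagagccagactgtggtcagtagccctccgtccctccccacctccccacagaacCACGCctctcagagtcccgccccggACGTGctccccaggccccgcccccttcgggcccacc
Hk2: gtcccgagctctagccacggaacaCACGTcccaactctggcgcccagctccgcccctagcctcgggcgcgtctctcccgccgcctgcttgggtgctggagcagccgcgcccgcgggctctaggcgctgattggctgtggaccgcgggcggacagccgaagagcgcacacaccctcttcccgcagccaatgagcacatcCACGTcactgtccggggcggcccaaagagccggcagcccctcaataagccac
Pfkp: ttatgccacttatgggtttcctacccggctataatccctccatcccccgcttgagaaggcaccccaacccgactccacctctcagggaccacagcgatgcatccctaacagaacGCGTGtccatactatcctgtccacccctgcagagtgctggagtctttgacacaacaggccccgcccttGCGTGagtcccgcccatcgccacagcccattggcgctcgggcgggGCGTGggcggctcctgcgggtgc
Pfkfb3: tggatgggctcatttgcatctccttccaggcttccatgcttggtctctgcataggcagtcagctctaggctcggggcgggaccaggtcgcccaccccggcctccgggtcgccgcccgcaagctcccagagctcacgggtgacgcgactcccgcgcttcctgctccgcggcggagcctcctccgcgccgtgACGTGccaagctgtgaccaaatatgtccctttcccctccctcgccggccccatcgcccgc
Slc16a1: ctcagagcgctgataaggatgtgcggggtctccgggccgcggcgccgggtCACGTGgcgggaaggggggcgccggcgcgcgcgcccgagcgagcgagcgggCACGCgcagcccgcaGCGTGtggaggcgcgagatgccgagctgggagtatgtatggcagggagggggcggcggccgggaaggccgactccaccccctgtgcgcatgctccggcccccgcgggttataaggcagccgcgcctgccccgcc
Hif1a: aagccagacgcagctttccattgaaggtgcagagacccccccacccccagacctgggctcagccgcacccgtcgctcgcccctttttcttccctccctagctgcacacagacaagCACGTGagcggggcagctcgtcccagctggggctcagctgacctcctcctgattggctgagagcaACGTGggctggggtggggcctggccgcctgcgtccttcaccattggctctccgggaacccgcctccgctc
Eno2: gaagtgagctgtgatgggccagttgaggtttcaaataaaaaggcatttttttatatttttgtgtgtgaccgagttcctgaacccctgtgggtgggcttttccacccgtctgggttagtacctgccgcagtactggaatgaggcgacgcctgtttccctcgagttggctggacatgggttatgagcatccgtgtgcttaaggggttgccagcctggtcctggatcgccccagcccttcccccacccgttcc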

How the data were processed

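Polyadenylated RNA of cultured mouse astrocytes and microglia was sequenced, aligned by the authors with STAR 2.7.3a to mm10 and counted with RSEM. The 6 deposited tables hold normalized counts (signal), which the authors made by dividing reads by DESeq2 size factors, for the 6 libraries of a comparison and 24411 genes, beside a mean of normalized counts, a log2 fold change with its SE, a test statistic, a p and an adjusted p, none of which were used. Multiplying each column by 1 factor returned whole reads for 100.0% of 878796 values (tolerance 0.01 reads), and the 15 columns that occur in 2 tables gave equal reads. Depth was 2016139 to 11570122 reads, which sets the precision of low counts.

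The 5 comparisons within a table used its normalized counts; 4 comparisons that no table holds used recovered reads with median-of-ratios size factors over 12 libraries. A gene entered the test if its mean reached 10 or more, and limma 3.58.1 (R 4.3.3) fitted log2(normalized count + 1) with its trend option on, followed by Benjamini-Hochberg adjustment over all genes tested. The test was also run on simulated data, whose results are not given here. Groups follow the sample labels. Alternatives were pseudocounts of 0.5 and 5, no filter and a filter of 10 in every library, quantile normalization, TMM scaling, no trend, DESeq2 1.42.0, edgeR 4.0.16 (quasi-likelihood), a replicate block and each library left out in turn. Transcript lengths and shared 31-base words came from GENCODE M21.

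Every member past the strict call is named, the 10 largest changes with values per library; members past the wider call only are named with their fold change and the others by count and range. From each further list the 2 largest rises and 2 largest falls past the strict call are named; some list results are not given. Members and lists were chosen with earlier results of these data known. The 3 quiescent SOD1G93A microglia samples were left out because no deposited table holds columns for them.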

Additional observations from a re-analysis of the deposited data

Results flagged for a closer look

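The cytokine response of Aldoc differed between the genotypes by a test of the difference itself, at 0.68 ± 0.13 (SE) on the log2 scale (adjusted p = 0.0400 in limma, 3 libraries in each of 4 groups). Its normalized counts averaged 1924 ± 91.0 (SD) in quiescent and 502 ± 50.8 in activated WT astrocytes, and 1542 ± 136 and 644 ± 38.9 in SOD1G93A astrocytes. Aldoc lost this call without any 1 of 8 libraries, where the difference was 0.61 to 0.73 and the adjusted p 0.0547 to 0.167. No single library was tested for its distance from the others.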

How the results depend on the processing

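The count of members past the strict call in cytokine-treated WT astrocytes was 10, 4 with no intensity trend and 4 to 11 over fits without 1 library. The wider count for genotype in activated astrocytes was 6, 1 with no trend and 2 to 5 without 1 library. The wider count for the difference between the genotypes' responses was 1, and 0 with no filter, with no trend and with the replicate block, and 0 to 1 without 1 library. The other totals of members past a call, both directions together, stayed within 1.5 times their value under the alternatives run. Under quantile normalization Gpi1 (-0.15), Pgk1 (-0.11) and Tkt (-0.25) were lower in quiescent microglia than in astrocytes, against higher in the main setting; the cause was not tested. In the 5 comparisons held by a table, libraries with the same replicate number did not deviate together. Such pairing was not looked at in the SOD1G93A response or between cell types. In quiescent astrocytes, replicates 1 and 3 of opposite genotypes did deviate together (r = 0.52 and 0.35). Replicates of the same number had r of -0.40, 0.06 and -0.44 there. With the replicate block in limma Slc2a6 (adjusted p = 0.0518), Gpi1 (0.0504) and Pfkl (0.0645) missed the wider call in the SOD1G93A response. In the difference between the responses of the 2 cell types, the block ended the strict call of Pfkl (adjusted p = 0.00261). It also ended the wider calls of Slc2a6 (0.0959) and Pfkfb3 (0.0667) there, and of Pgam1 (0.0501) in the LPS response. Between the cell types at rest a block could not be estimated. Low counts limit Slc16a3, Hk3 and Slc16a7 in astrocytes and Slc16a7 after LPS. Leaving out a library leaves 2 in its group, whose spread is then pooled with the others.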

Other observations

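Between quiescent WT microglia and quiescent WT astrocytes, positive meaning higher in microglia, the metabolic neighbours of the members differed in many places, among them genes of glycerol phosphate (Gpd1), of inositol uptake (Slc2a13) and of glycogen (Pygl, Ppp1r3c). Over all genes tested, 22.0% were higher and 25.6% lower in microglia at the strict call, and 37.8% and 40.9% at the wider call. Other glycolytic isozymes and regulators had 3 up and 3 down at the strict call (Pgm2l1 2.20, Tigar 1.48, Gpd1 -4.92, Gpd2 -1.27), 5 and 3 at the wider call, of 10 tested. Other transporters of the Slc2a family had 2 up and 2 down at the strict call (Slc2a9 2.93, Slc2a8 1.45, Slc2a13 -3.97, Slc2a10 -3.08), 2 and 2 at the wider call, of 4 tested. Other pyruvate dehydrogenase genes and pyruvate carriers had 1 up and 2 down at the strict call (Mpc1 1.62, Pdk4 -3.71, Pcx -2.85), 2 and 6 at the wider call, of 11 tested. Other pentose phosphate genes had 2 up and 1 down at the strict call (H6pd 4.19, Rbks 2.21, Prps1 -1.65), 3 and 2 at the wider call, of 8 tested. The hypoxia-inducible factor pathway had 3 up and 6 down at the strict call (P4ha1 2.23, Ero1l 2.04, Adm -5.11, Arnt2 -4.97), 10 and 6 at the wider call, of 19 tested. Glycogen metabolism had 2 up and 3 down at the strict call (Pygl 4.25, Phka2 1.23, Ppp1r3c -4.81, Phkb -1.18), 5 and 7 at the wider call, of 14 tested. Gluconeogenesis had 1 up and 0 down at the strict call (Pck2 1.71), 2 and 0 at the wider call, of 2 tested. The citrate cycle with itaconate synthesis had 1 up and 4 down at the strict call (Irg1 1.41, Idh3a -1.52, Fh1 -1.20), 3 and 14 at the wider call, of 19 tested. Slc2a9, Slc2a13, Slc2a10, Pdk4, Rbks, Adm and Ppp1r3c have few counts in the cell type where they are lower, so their calls are no support for the counts.

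The cytokine response of SOD1G93A astrocytes was read for the same lists. Over all genes tested, 6.74% rose and 6.59% fell at the strict call, and 21.9% and 21.5% at the wider call. Other glycolytic isozymes and regulators counted 0 up and 1 down at the strict call (Gpd1 -1.40), 1 and 2 at the wider call, of 10 tested. Other transporters of the Slc2a family counted 0 up and 0 down at the strict call, 0 and 0 at the wider call, of 5 tested. Other pyruvate dehydrogenase genes and pyruvate carriers counted 1 up and 1 down at the strict call (Pdp1 1.30, Pcx -1.22), 3 and 2 at the wider call, of 11 tested. Other pentose phosphate genes counted 0 up and 0 down at the strict call, 1 and 0 at the wider call, of 7 tested. The hypoxia-inducible factor pathway counted 2 up and 0 down at the strict call (Ndrg1 1.96, Egln3 1.27), 10 and 3 at the wider call, of 18 tested. Glycogen metabolism counted 0 up and 0 down at the strict call, 1 and 5 at the wider call, of 15 tested. Gluconeogenesis counted 0 up and 0 down at the strict call, 1 and 0 at the wider call, of 2 tested. The citrate cycle with itaconate synthesis counted 0 up and 0 down at the strict call, 1 and 3 at the wider call, of 19 tested.

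The difference between the LPS response of microglia and the cytokine response of WT astrocytes was read last, positive meaning a more positive response in microglia. Over all genes tested, 6.73% were more positive and 8.44% more negative at the strict call, and 20.1% and 20.9% at the wider call. Other glycolytic isozymes and regulators showed 1 up and 3 down at the strict call (Gpd2 1.20, Pgm2l1 -2.10, Galk1 -1.12), 2 and 4 at the wider call, of 10 tested. Other transporters of the Slc2a family showed 0 up and 1 down at the strict call (Slc2a8 -2.96), 0 and 2 at the wider call, of 4 tested. Other monocarboxylate transporters and their chaperones showed 0 up and 1 down at the strict call (Slc16a6 -1.20), 1 and 2 at the wider call, of 7 tested. Other pyruvate dehydrogenase genes and pyruvate carriers showed 0 up and 2 down at the strict call (Pdp1 -1.90, Mpc1 -1.38), 2 and 2 at the wider call, of 11 tested. Other pentose phosphate genes showed 0 up and 2 down at the strict call (H6pd -1.96, Prps2 -1.17), 0 and 2 at the wider call, of 8 tested. The hypoxia-inducible factor pathway showed 4 up and 3 down at the strict call (Adm 4.76, Vegfa 3.81, Egln3 -1.97, Bnip3 -1.37), 6 and 7 at the wider call, of 19 tested. Gluconeogenesis showed 0 up and 0 down at the strict call, 0 and 0 at the wider call, of 2 tested. The citrate cycle with itaconate synthesis showed 1 up and 0 down at the strict call (Irg1 6.32), 5 and 7 at the wider call, of 19 tested. Adm has few counts in quiescent microglia.

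Across these 9 lists limma made 0 calls at either level between the genotypes in quiescent astrocytes, in LPS-treated microglia and in the test of the genotypes' cytokine responses. Over all genes tested the wider call was passed by 0.057%, 0.00936% and 0.277% in that order, and the strict call by 0.0% in each. In activated astrocytes the wider call was passed upward by 6 of 19 genes of the citrate cycle with itaconate synthesis, 3 of 11 pyruvate dehydrogenase and carrier genes, 2 of 18 genes of the hypoxia-inducible factor pathway, and 1 gene each of the glycolytic, monocarboxylate, glycogen and gluconeogenesis lists, and downward by 1 glycolytic gene. The Slc2a family and pentose phosphate genes had none. Of all genes tested in activated astrocytes, 7.27% passed the wider call, both directions together.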
